A study of Mus musculus with 16 samples.

Results

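The transcripts described here belong to cholesterol synthesis, sterol uptake and the control of both by SREBP2. They were read in mouse livers labelled LRH-1 hep +/+ or LRH-1 hep-/-. LRH-1 is a nuclear receptor, which Nr5a2 encodes. The list names 34 genes, and a gene was taken when an array probe set was annotated to it alone, with the brightest probe set used where there were several. This gave 30 genes of the 19237 with a value. Acat2, Soat1, Soat2 and Mbtps2 had no such probe set and were not analysed here, so the sterol esterifying enzymes are missing from the account. RNA of 16 livers was measured, each liver on its own Affymetrix array: 8 livers are labelled LRH-1 hep +/+ (control) and 8 LRH-1 hep-/- (knockout). All mice were 17 to 19 weeks old, had food at all times and were killed at 7 am. The labels do not spell out hep, the strain, the sex or how the gene was deleted. RNA came from whole liver, which holds cells other than hepatocytes.

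Cells make cholesterol from acetyl-CoA through mevalonate, the isoprenoid diphosphates, squalene and lanosterol. SREBP2 is a transcription factor that waits in the endoplasmic reticulum, bound to SCAP. When membranes hold much sterol, the INSIG proteins keep the complex there. When sterol is low, SCAP carries SREBP2 to the Golgi, proteases release it, and it switches on genes of synthesis and uptake together. In liver the same transcripts also follow feeding and insulin, and cholesterol made there leaves in lipoproteins, in bile and as bile acids.

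Levels are log2 of the deposited array intensity, and a change is knockout minus control on that scale. Nr5a2 was lower in each knockout liver than in any control liver: controls ran from 8.45 to 8.78 and knockouts from 7.25 to 8.25, with a knockout mean at 54.2% of control (exact permutation p = 0.000155, 2-sided, the smallest that 12870 assignments can give). The hepatocyte transcript Alb stood at 13.12 in both genotypes and Ttr at 12.76 in both. Of 7 hepatocyte markers 0 passed the test described below, and 6 had a change below 0. Lower in knockouts at an unadjusted p under 0.05 in limma were 2 of them, Hnf4a (-0.16) and Cps1 (-0.14). In control 5, control 8 and knockout 1 the mean of 7 adipocyte markers was 7.95, 7.10 and 7.85, against 6.43 or less in the other 13 livers. Adipoq, which adipocytes secrete, was at 6.21, 5.04 and 6.30 in those livers and at 3.52 or less elsewhere. Of 8 acute phase transcripts 5 rose in knockouts, with list means of 7.68 to 8.42 in controls and 8.70 to 10.38 in knockouts. The highest was knockout 3, and the next stood at 9.43. Markers of other liver cells moved with genotype in part: of 6 stellate cell markers 3 rose and 1 fell, with list means of 6.65 to 7.40 in controls and 6.72 to 7.55 in knockouts. Of 6 macrophage markers 1 rose (list means 7.08 to 7.53 and 7.06 to 7.76), of 4 cholangiocyte markers 1 rose (5.32 to 5.67 and 5.52 to 5.93), and of 4 endothelial markers 0 passed. Among the adipocyte markers Plin4 rose (1.07) and Car3 fell (-0.38), and the erythroid marker Alas2 fell (-0.35). Over all genes 3.20% fell, 5.49% rose and 17.6% had an unadjusted p under 0.05 in limma. The part of these cells and states in the results was not tested. The labels call the livers biological replicates and name no litter, cage or array batch. In whole tissue, fewer cells of a type and less RNA per cell cannot be told apart.

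Knockout livers held less transcript for 3 synthesis enzymes, Mvd, Tm7sf2 and Msmo1, and for the lysosomal lipase Lipa. Of the 30 genes, these 4 fell (13.3%) and 0 rose at a Benjamini-Hochberg adjusted p under 0.05 in limma, whereas 3.20% of all 19237 genes fell and 5.49% rose. Changes were below 0 in 22 of the 30 genes, with a median of -0.16, against 49.2% of all genes and a median of 0.0019. The synthesis enzymes carried most of this: 16 of 17 had a change below 0 and their median was -0.25. The enzymes move together between livers, so these genes are not independent and the counts of signs are descriptions. Without knockout 3 the median change of the 30 genes was -0.09, and without control 6 it was -0.22. At an unadjusted p under 0.05 there were 13 of 30 genes, against 17.6% of all genes. The second feature of the data was the spread between livers of a genotype. Most enzymes went up and down together from liver to liver, with control 6 and knockout 3 at the bottom.

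**Figure D1:**
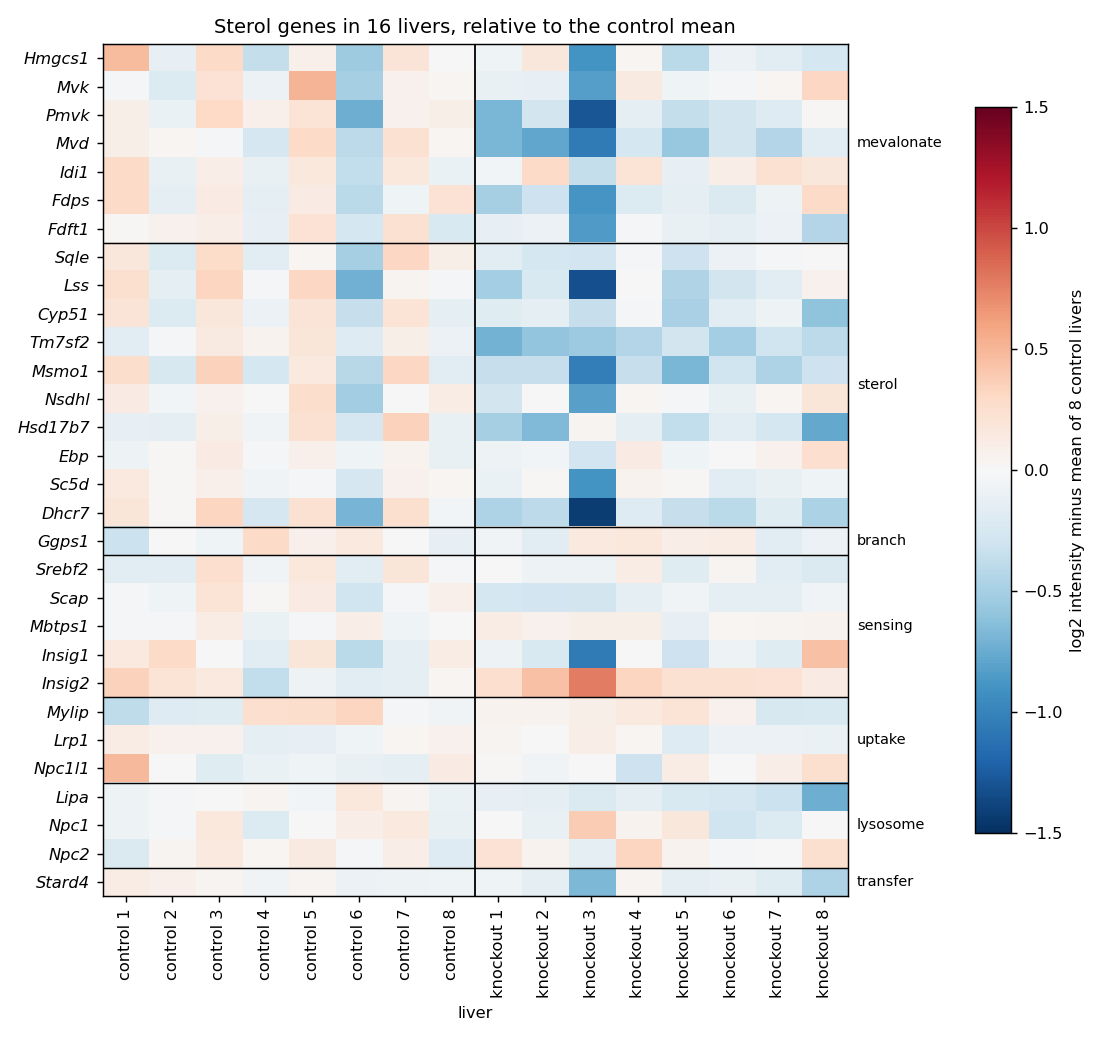
Heat map of the 30 genes (rows, grouped by role) in the 16 livers (columns), coloured by log2 intensity minus the mean of the 8 control livers. Control 6 and knockout 3 are blue over most of the enzyme rows, and Tm7sf2 is blue in all 8 knockout livers.

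**Figure D2:**
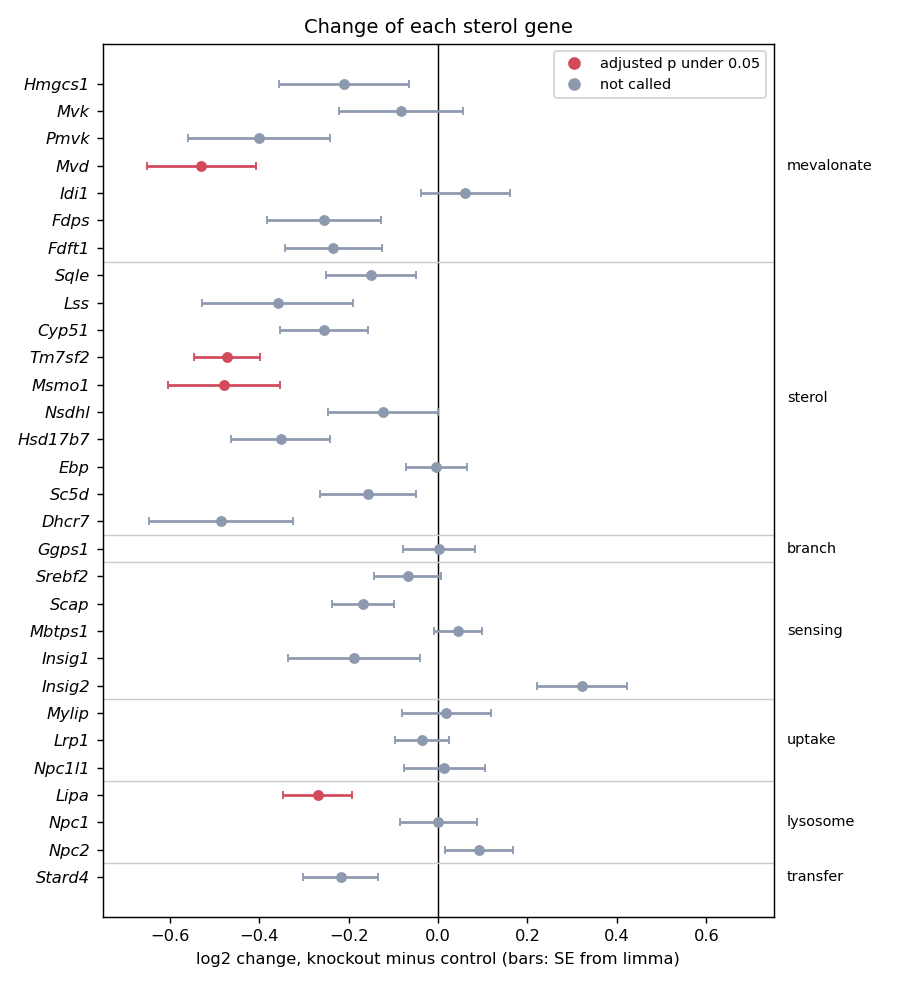
Change of each gene, knockout minus control, on the log2 scale (points) with its SE from limma (bars), grouped by role. The 4 genes with an adjusted p under 0.05, Mvd, Tm7sf2, Msmo1 and Lipa, lie between -0.53 and -0.27.

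Because the enzymes move together between livers, their promoters are shown first. RefSeq windows of GRCm38.p6, from 250 bases before to 50 bases after a transcript start, were found for 28 of the 34 genes. Windows for Sqle, Fdps, Fdft1, Soat2, Npc1 and Stard4 were not used here. Each window was searched on both strands for a sterol regulatory element, spelled TCACNCCAC with N any base, and for CCAAT, the site of NF-Y, a factor known to work beside SREBP2. Below are the 250 bases before the start, 5′ to 3′ on the gene's strand, with matches in capitals. Hmgcs1 is shown for its sterol element, Mvd, Tm7sf2 and Msmo1 because they fell, Idi1 because it did not, and Insig1 because it is the sensor that SREBP2 itself induces.
Hmgcs1 (chr13:119690101-119690350, plus strand): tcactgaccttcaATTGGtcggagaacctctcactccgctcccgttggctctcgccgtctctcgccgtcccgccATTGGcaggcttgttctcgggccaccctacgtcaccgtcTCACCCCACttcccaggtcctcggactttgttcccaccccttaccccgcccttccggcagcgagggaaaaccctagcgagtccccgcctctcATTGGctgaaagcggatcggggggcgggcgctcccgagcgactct
Mvd (chr8:122443423-122443672, minus strand): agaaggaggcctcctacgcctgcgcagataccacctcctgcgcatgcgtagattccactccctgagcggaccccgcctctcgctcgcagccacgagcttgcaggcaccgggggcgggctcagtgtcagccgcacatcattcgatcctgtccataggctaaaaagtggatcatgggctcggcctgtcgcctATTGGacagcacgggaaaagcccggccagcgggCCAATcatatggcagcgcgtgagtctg
Idi1 (chr13:8885356-8885605, plus strand): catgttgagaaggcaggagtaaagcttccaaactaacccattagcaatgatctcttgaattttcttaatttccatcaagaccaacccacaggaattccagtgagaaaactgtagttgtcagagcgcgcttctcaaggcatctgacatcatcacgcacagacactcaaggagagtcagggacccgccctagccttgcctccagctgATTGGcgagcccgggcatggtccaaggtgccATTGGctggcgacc
Tm7sf2 (chr19:6067851-6068100, minus strand): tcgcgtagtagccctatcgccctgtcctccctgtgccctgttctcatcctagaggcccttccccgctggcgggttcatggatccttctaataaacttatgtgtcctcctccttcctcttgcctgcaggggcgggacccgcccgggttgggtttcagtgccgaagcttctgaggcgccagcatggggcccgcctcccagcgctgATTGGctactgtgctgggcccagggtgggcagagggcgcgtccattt
Msmo1 (chr8:64733579-64733828, minus strand): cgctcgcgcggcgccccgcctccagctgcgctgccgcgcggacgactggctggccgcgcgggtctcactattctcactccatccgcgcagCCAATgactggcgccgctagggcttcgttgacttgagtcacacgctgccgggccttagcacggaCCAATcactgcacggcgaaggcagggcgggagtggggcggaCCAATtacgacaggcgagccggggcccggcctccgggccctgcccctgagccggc
Insig1 (chr5:28071162-28071411, plus strand): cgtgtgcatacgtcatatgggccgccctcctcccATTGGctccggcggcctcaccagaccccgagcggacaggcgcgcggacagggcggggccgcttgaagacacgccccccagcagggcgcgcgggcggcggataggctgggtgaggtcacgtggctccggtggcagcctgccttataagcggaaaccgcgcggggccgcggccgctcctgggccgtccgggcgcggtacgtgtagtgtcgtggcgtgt

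The Hmgcs1 window was the sole member window with the spelled sterol element, which begins at position -137 counted from the start. Of all 32851 windows 1.24% hold it. The search took exact matches alone, so a window without one may still hold a sterol element of another spelling. CCAAT on either strand occurred in 14 of the 15 synthesis enzymes with a window, Acat2 being the exception, and in 23 of all 28 genes with a window, against 37.4% of all windows. A gene with several windows was counted when any of them matched, which a share of windows does not allow for. Counted by window, CCAAT was in 23 of 34 member windows. From the start, CCAAT began at -160, -96 and -55 in Msmo1, at -60 and -27 in Mvd and at -45 and -14 in Idi1. In Tm7sf2 it began at -47 and in Insig1 at -216. Sp1's GGGCGG was found in 24 of the 28 genes, or 27 of 34 member windows, and in 35.7% of all windows. The E-box CACGTG was found in 5 genes, or 6 of 34 member windows, and in 7.15% of all windows. The promoters of the enzymes that fell and of Idi1, which did not pass, thus both carry CCAAT. These are matches of letters, and binding was not measured.

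The early steps, from acetyl units to squalene, were read through 7 enzymes, of which 1 fell, against 3.20% of all genes. A single call says little about these steps as a group. Mvd, which decarboxylates mevalonate diphosphate to isopentenyl diphosphate, ranged from 7.59 to 8.28 around a median of 8.01 in controls, and from 6.92 to 7.83 around 7.48 in knockouts. The ranges overlapped, since control 6 stood at 7.59 and 3 knockouts lay above it. The change was -0.53 ± 0.12 (SE, limma adjusted p = 0.00651), or 69.3% of control. Without the 3 livers with adipocyte transcripts it was -0.45 and did not pass (limma adjusted p = 0.0685).

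The enzymes before Mvd in the pathway had changes below 0 that did not pass. Hmgcs1, the cytosolic synthase that makes HMG-CoA, ran from 10.11 to 11.12 (median 10.68) in controls and from 9.75 to 10.82 (median 10.52) in knockouts. Its ranges overlapped, with a change of -0.21 ± 0.15 (SE). Pmvk, the second mevalonate kinase, ran from 7.01 to 8.03 (median 7.82) in controls and from 6.45 to 7.75 (median 7.45) in knockouts. Here the change was -0.40 ± 0.16 (SE, limma adjusted p = 0.156), and without control 6 it was -0.50 (limma adjusted p = 0.0329). The first mevalonate kinase, Mvk, changed by -0.08 ± 0.14 (SE).

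Past Mvd, the isomerase Idi1 was the enzyme whose change was above 0, at 0.06 ± 0.10 (SE). It ran from 10.04 to 10.70 in controls and from 10.06 to 10.71 in knockouts, so both genotypes covered the same span. Idi1 had a second probe set, dimmer on average (10.07 against 10.45), whose change was 0.09 and which followed the first over the 16 livers (r = 0.98). Fdps, which makes farnesyl diphosphate, changed by -0.26 ± 0.13 (SE) and squalene synthase Fdft1 by -0.23 ± 0.11 (SE), neither passing. Whether probes for these genes also read related copies elsewhere in the genome cannot be told from the deposited values. Ggps1, which turns farnesyl into geranylgeranyl diphosphate for protein prenylation, lay between 5.89 and 6.50 in controls and between 6.04 and 6.36 in knockouts, with nothing to separate the genotypes.

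The later steps, from squalene to cholesterol, were read through 10 enzymes, of which 2 fell, against 3.20% of all genes. Tm7sf2, a sterol 14-reductase, was the clearest. Its controls lay between 9.60 and 9.97 around a median of 9.80, and its knockouts between 9.07 and 9.51 around 9.32. No knockout liver reached the lowest control, which was so for Tm7sf2 and Lipa of the 30 genes and for 1.20% of all genes in the lower direction (1.69% in the higher, with 0 of the 30). The change was -0.47 ± 0.07 (SE, limma adjusted p = 0.000179), or 72.1% of control, and stayed between -0.50 and -0.44 when any 1 liver was left out. Lbr, a nuclear envelope protein with the same reductase activity, also fell (-0.26 ± 0.07 SE, limma adjusted p = 0.0177), a call that was lost without the 3 livers with adipocyte transcripts.

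Msmo1, the methylsterol monooxygenase that acts next on the ring, fell as well. Controls ran from 10.12 to 10.88 with a median of 10.53, and knockouts from 9.50 to 10.24 with a median of 10.19. Control 6, at 10.12, was the control that lay within the knockout range, and all other controls were above every knockout. The change was -0.48 ± 0.13 (SE, limma adjusted p = 0.0171), or 71.8% of control. Without the 3 livers with adipocyte transcripts the change was -0.50 with a limma adjusted p of 0.0579, so the size held and the call did not.

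Hsd17b7 and Dhcr7 had changes of a similar size that did not pass. Hsd17b7, which reduces the 3-keto group left by demethylation, ran from 9.33 to 9.92 (median 9.49) in controls and from 8.81 to 9.61 (median 9.26) in knockouts. Its change of -0.35 ± 0.11 (SE) had a limma adjusted p of 0.0519, just outside the threshold, and passed without knockout 3 (adjusted p = 0.0181), knockout 4 (0.0445), knockout 6 (0.0479) or control 6 (0.0411). Knockout 3, low in most enzymes, was the highest knockout for Hsd17b7. Dhcr7, the last enzyme of the Kandutsch-Russell route, ran from 8.60 to 9.62 (median 9.40) in controls and from 7.88 to 9.13 (median 8.90) in knockouts. Control 6 and knockout 3 stood far below the rest of their genotypes, and the change was -0.48 ± 0.16 (SE, limma adjusted p = 0.0694), or -0.58 without control 6 (limma adjusted p = 0.0147).

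The remaining sterol enzymes did not pass. Lss, which closes the lanosterol ring, ran from 7.93 to 8.97 (median 8.66) in controls and from 7.33 to 8.72 (median 8.40) in knockouts. Its change of -0.36 ± 0.17 (SE) was smaller than its 2.06-fold span among controls and 2.61-fold span among knockouts. Sqle, the squalene epoxidase and a regulated step, ran from 8.63 to 9.44 (median 9.19) in controls and from 8.81 to 9.13 (median 8.99) in knockouts. The knockouts lay inside the control range and the change was -0.15 ± 0.10 (SE). Cyp51, the lanosterol 14-demethylase, changed by -0.25 ± 0.10, Sc5d by -0.16 ± 0.11 and Nsdhl by -0.12 ± 0.12 (SE). Ebp, the sterol isomerase, was the steadiest enzyme, with an SD around the genotype means of 0.13 and means of 9.90 in both genotypes.

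**Figure D3:**
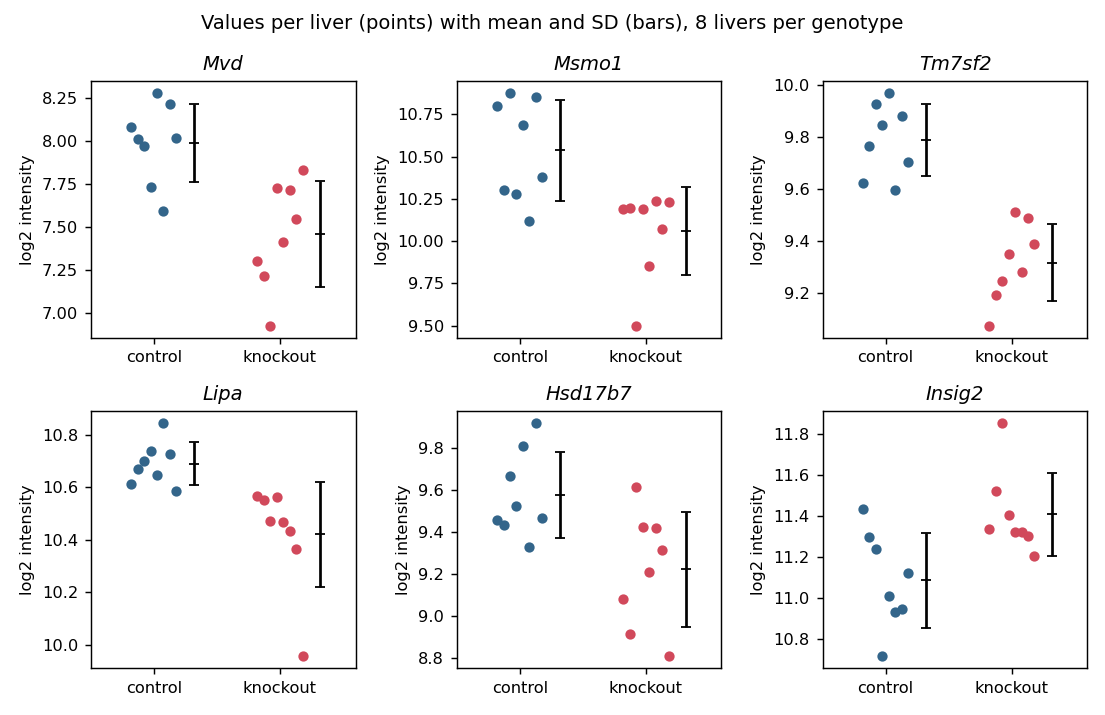
Log2 intensity per liver (points) for Mvd, Msmo1, Tm7sf2, Lipa, Hsd17b7 and Insig2, with mean and SD (bars) over 8 livers per genotype; each panel has its own axis. The genotypes separate in full for Tm7sf2 and Lipa and overlap in the other panels.

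Among the 5 sensing genes measured, 0 passed the test in limma, whereas 3.20% of all genes fell and 5.49% rose. At an unadjusted p under 0.05 there were 2 of the 5, against 17.6% of all genes. So few genes cannot be read against these shares. Srebf2, which encodes SREBP2, ran from 7.78 to 8.20 (median 7.91) in controls and from 7.74 to 8.06 (median 7.87) in knockouts, and changed by -0.07 ± 0.08 (SE). Its partner Scap, the escort from endoplasmic reticulum to Golgi, changed by -0.17 ± 0.07 (SE, limma adjusted p = 0.177) and passed without control 6 (-0.21, adjusted p = 0.0482). A second Scap probe set was dim, with a mean of 5.27, and changed by -0.05. Mbtps1, the site-1 protease that cuts SREBP2, held within 8.09 to 8.34 in all livers. Array values read transcript, so the processing of SREBP2 protein was not measured.

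The INSIG genes had changes of opposite sign. Insig1 ran from 10.85 to 11.55 (median 11.31) in controls and from 10.20 to 11.69 (median 11.13) in knockouts. Knockout 3 was the lowest of all livers and knockout 8 the highest, and the change was -0.19 ± 0.15 (SE). Insig2, whose liver transcript is known to be repressed by insulin, ran from 10.72 to 11.44 (median 11.07) in controls and from 11.21 to 11.86 (median 11.33) in knockouts. Knockout 3 was highest for Insig2, where it was lowest for Insig1. The Insig2 change of 0.32 ± 0.10 (SE) had a limma adjusted p of 0.0521, just outside the threshold. It passed without control 1 (0.37, adjusted p = 0.0181), control 2 (0.35, adjusted p = 0.0432) or knockout 8 (0.35, adjusted p = 0.0348).

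In uptake, lysosomal release and transfer, 1 of 7 genes fell, against 3.20% of all genes, a single call that says little about the group. It was Lipa, the lysosomal acid lipase that frees cholesterol from lipoprotein esters. Lipa ran from 10.59 to 10.85 (median 10.69) in controls and from 9.96 to 10.57 (median 10.47) in knockouts. Every knockout was below every control, though by a small margin, and knockout 8 lay apart at 9.96 with the next knockout at 10.37. The change was -0.27 ± 0.08 (SE, limma adjusted p = 0.0329), or 83.0% of control. The call was lost, with adjusted p between 0.0503 and 0.0742, when control 2, 3, 4, 6 or 7 or knockout 6 or 7 was left out. Leaving out knockout 8 gave a change of -0.20, which passed (limma adjusted p = 0.0219).

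The other sterol handling genes had nothing past the threshold. Npc1, which passes sterol out of the lysosome, had means of 9.02 in both genotypes, and its soluble partner Npc2 changed by 0.09 ± 0.08 (SE). Mylip, the ubiquitin ligase that marks the LDL receptor for breakdown, ran from 6.40 to 7.09 in controls and from 6.53 to 6.97 in knockouts. Lrp1, a receptor for lipoprotein remnants, ran from 10.41 to 10.67 in controls and from 10.36 to 10.65 in knockouts. For both, the knockout range lay almost wholly within that of the controls. Npc1l1, a sterol uptake protein of intestine, was dim, between 4.91 and 5.70 over all livers. Stard4, a cytosolic sterol carrier, ran from 8.51 to 8.70 (median 8.59) in controls and from 7.91 to 8.63 (median 8.45) in knockouts, a change of -0.22 ± 0.08 (SE, limma adjusted p = 0.145).

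For the enzymes as a group, the difference between the genotype means was larger in size than the SD within either genotype. It was smaller than the span from the lowest to the highest liver, whose low ends were control 6 and knockout 3. Averaged over the 17 enzymes, controls stood at 9.58 (SD 0.21, n = 8) and knockouts at 9.32 (SD 0.22, n = 8), a difference of -0.26. It ran from 9.16 in control 6 to 9.77 in control 5, a 1.53-fold span, and from 8.81 in knockout 3 to 9.51 in knockout 4, a 1.62-fold span. Control 6 was the lowest control for 16 of 17 enzymes, Ebp being the exception. Knockout 3 was the lowest knockout for 13 of 17 and the lowest of all livers for 12. The next lowest means were 9.47 among controls and 9.26 among knockouts. Without knockout 3 the knockout mean was 9.39 (SD 0.09, n = 7), and the genotypes differed by -0.19. Without control 6 the control mean was 9.64 (SD 0.13, n = 7), and they differed by -0.32.

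The widest swings were in Lss, Dhcr7, Pmvk, Hmgcs1 and Mvk, whose SDs around the genotype means were 0.39, 0.37, 0.37, 0.33 and 0.31. Mvk ran from 7.21 to 8.21 (median 7.70) in controls and from 6.88 to 8.01 (median 7.66) in knockouts. These 5 enzymes each spanned at least 2.00-fold between the highest and lowest liver of either genotype. Ebp and Tm7sf2 swung least, with SDs of 0.13 and 0.14. Insig1 was as variable as the widest enzymes, with an SD of 0.34 and a 2.82-fold span among knockouts, while Srebf2 (0.15) and Scap (0.13) were not.

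The enzymes tracked each other across control livers. Over the 136 pairs of enzymes, the median Pearson r between the 8 control livers was 0.75, and 62.5% of pairs had an r above 0.7. The same over all gene pairs gave a median of 0.01 and 6.90% above 0.7. No enzyme pair was negative. Leaving out control 6 lowered the median to 0.54 and the share above 0.7 to 24.3%, against 8.98% of all gene pairs over the same 7 livers. These are descriptions over livers measured on 1 array each, and a shift in array scale or in tissue content shared by the genes would enter them too.

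Knockout livers gave a similar median with far more scatter among pairs. The median r was 0.70, with 48.5% of pairs above 0.7 and a range from -0.62 to 0.99, and 22 of 136 pairs were negative. Without knockout 3 the median dropped to 0.26, the share above 0.7 was 19.1% (all gene pairs 8.82%), and 47 pairs were negative. The agreement between knockout livers therefore rested largely on this liver, which also had the highest Lcn2 (10.39) and Mt2 (11.43), transcripts of the acute phase. The part of the acute phase in its low enzyme values was not tested. Whether the genotypes differ in how closely the enzymes track each other was also not tested.

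**Figure D4:**
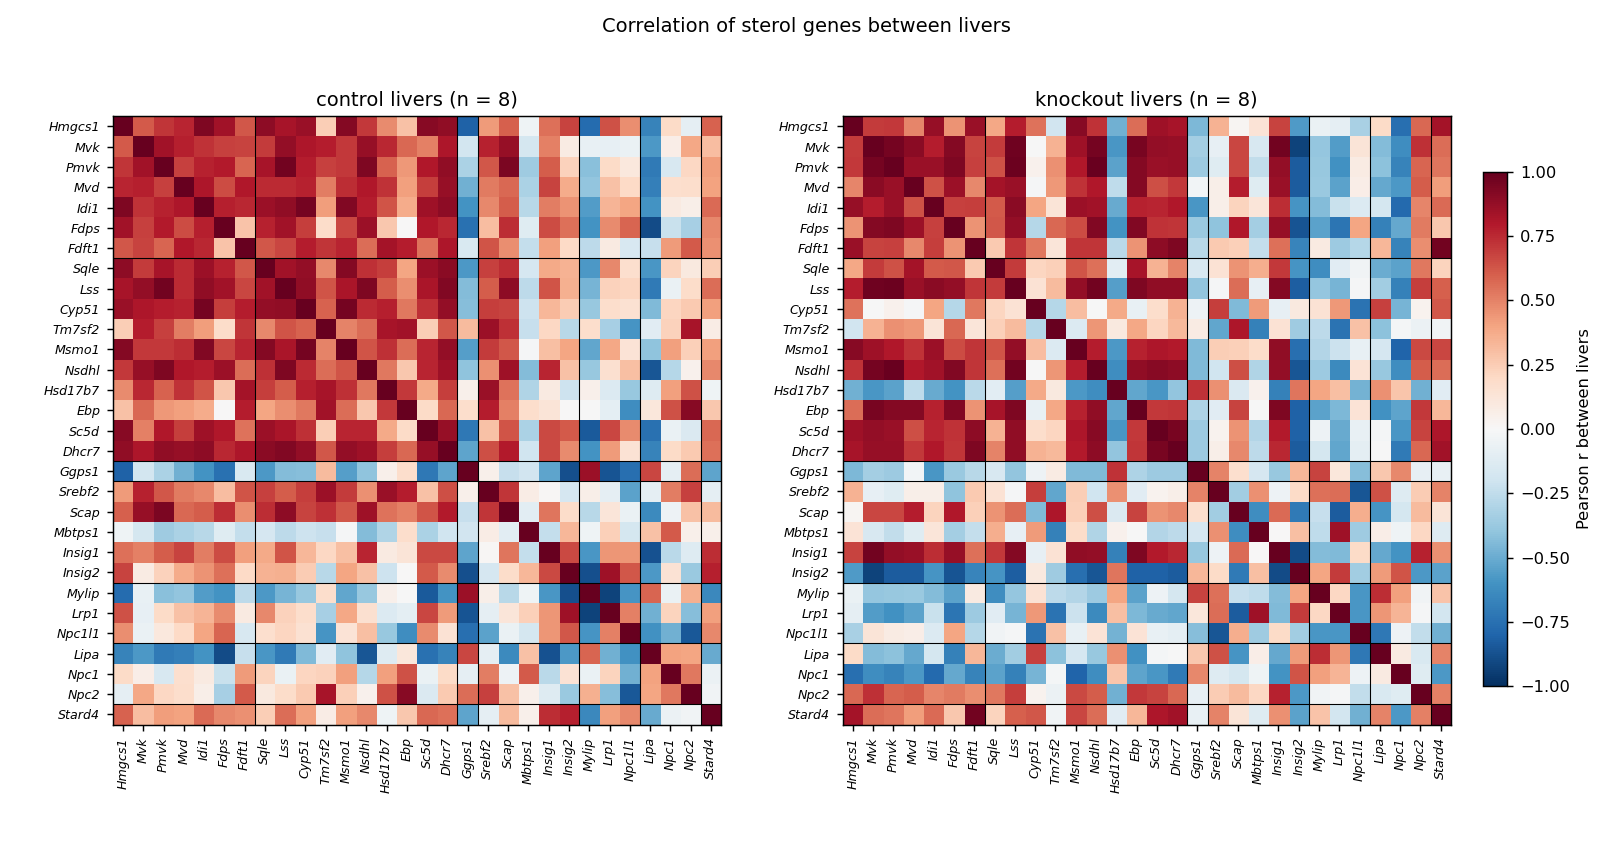
Pearson r between every pair of the 30 genes over the 8 control livers (left) and the 8 knockout livers (right), with genes grouped by role. No enzyme pair is below 0 in controls, and in knockouts Cyp51, Tm7sf2 and Hsd17b7 stand out of it.

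Each enzyme was then set against the mean of the other 16 in the same livers. The share of all genes with an r above 0.7 against the enzyme mean was not computed. In controls 15 of 17 had an r above 0.7, led by Dhcr7 (0.97) and Lss (0.95), with Tm7sf2 (0.62) and Ebp (0.52) the exceptions. In knockouts 13 of 17 did, led by Lss (0.98), and the exceptions were Sqle (0.66), Tm7sf2 (0.30), Cyp51 (0.20) and Hsd17b7 (-0.50). Without control 6 the number above 0.7 was 8, and without knockout 3 it was 4. Lss was then at 0.85 in controls and 0.90 in knockouts. The negative value of Hsd17b7 rested on knockout 3, without which it was 0.12. Cyp51 was at 0.94 in controls with or without control 6, and at 0.06 in knockouts without knockout 3, where knockout 5 and knockout 8 were low. Of the enzymes that fell, Msmo1 had an r of 0.90 in controls and 0.85 in knockouts and Mvd of 0.85 and 0.83. Without knockout 3 the knockout values were 0.26 for Msmo1, 0.68 for Mvd and 0.36 for Tm7sf2.

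Outside the enzymes, Insig1 was at r = 0.57 with the enzyme mean in controls and 0.87 in knockouts, and at -0.04 and 0.45 without the lowest liver of each. Insig2 was at 0.36 in controls and -0.85 in knockouts, and at -0.12 in knockouts without knockout 3, so its inverse relation rested on that liver. Srebf2 was at 0.69 in controls with or without control 6, and at 0.06 in knockouts. Scap was at 0.82 in controls and 0.56 in knockouts, and at 0.49 and 0.39 without the lowest liver of each. Lipa ran against the enzymes in controls (-0.65), a value that fell to -0.07 without control 6. For Npc1 the value was 0.14 in controls and -0.74 in knockouts, against 0.70 without control 6 and -0.25 without knockout 3.

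**Figure D5:**
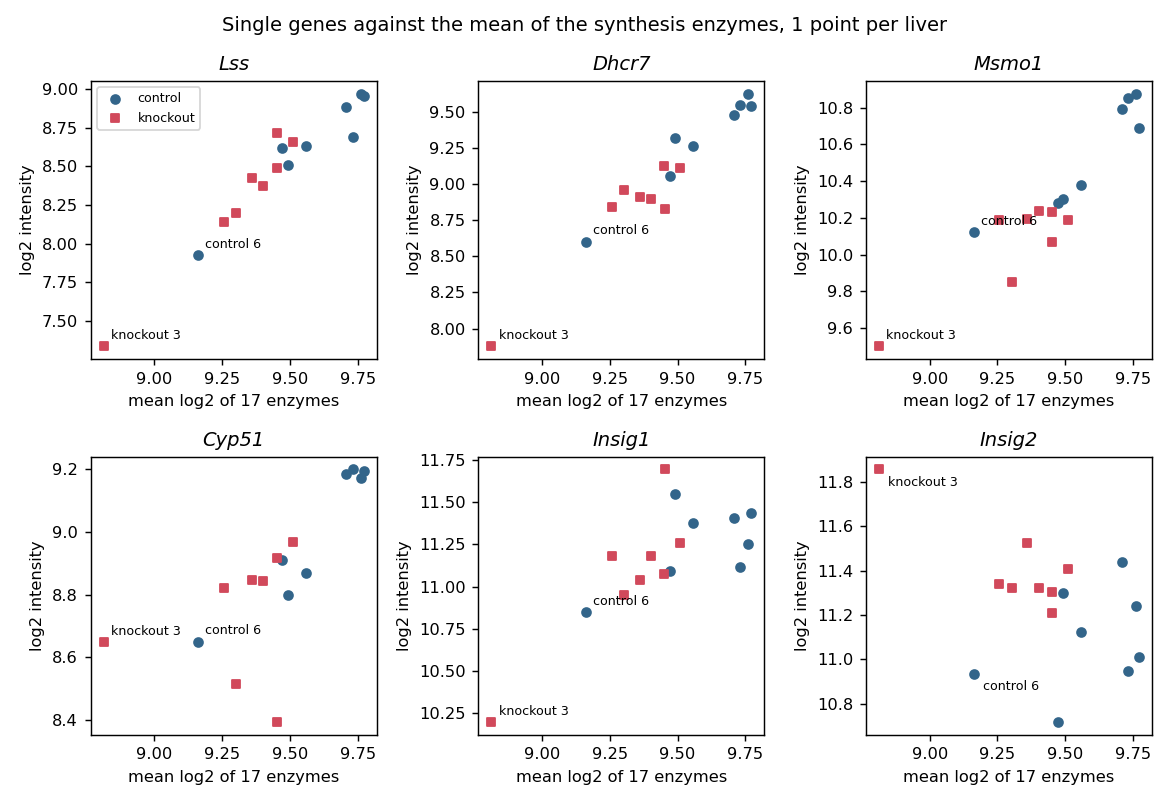
Log2 intensity of Lss, Dhcr7, Msmo1, Cyp51, Insig1 and Insig2 (vertical axes) against the mean log2 intensity of the 17 enzymes (horizontal axes), 1 point per liver, circles for controls and squares for knockouts. Lss, Dhcr7 and Msmo1 climb with the enzyme mean, while Insig2 is highest in knockout 3, the liver with the lowest enzyme mean.

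Sqle served as a single reference gene for tests of these relations, 58 in all, within each genotype. In controls Msmo1 followed Sqle most closely (Pearson r = 0.92, exact permutation p = 0.00057, 0.0331 after Benjamini-Hochberg adjustment; Spearman rho = 0.93, exact permutation p = 0.00223, adjusted 0.0991). Without control 6 and control 2, the livers farthest from the Sqle median, r was 0.86. This was the sole relation of 58 to pass on r, and 0 passed on rho, while 17 had an unadjusted exact p under 0.05 on r. The median r of the other 16 enzymes with Sqle was 0.80 in controls and 0.58 in knockouts, and without the 2 farthest livers it was 0.48 and 0.45.

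Relative to the other 16 enzymes of the same liver, Idi1 shifted most between genotypes. Its level minus their mean lay between 0.80 and 1.053 in controls and between 1.057 and 1.43 in knockouts. By that small margin it was the sole enzyme of the 17 whose genotypes did not overlap on this scale. The like share over all genes was not computed. The change of Idi1 itself was 0.06 (limma adjusted p = 0.887), while the mean of all 17 enzymes differed by -0.26. Relative to the other enzymes, Ebp also stood higher in knockouts, by 0.28. Below their control position stood Mvd (-0.28), Dhcr7 (-0.23), Msmo1 (-0.23) and Tm7sf2 (-0.22), in log2 units. Cyp51, Fdps and Fdft1 differed from theirs by 0.01, 0.01 and 0.03. These positions share the same 17 values in each liver and were not tested.

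Other lists place these values. Of all genes 3.20% fell, 5.49% rose and 17.6% had an unadjusted p under 0.05 in limma. The lists were chosen with earlier results of these data known. Of 15 measured genes of fatty acid synthesis under SREBP1, 5 fell and 0 rose, among them the desaturases Fads2 (-0.39 ± 0.06 SE, limma adjusted p = 0.000244) and Fads1 (-0.35 ± 0.07 SE, limma adjusted p = 0.00165) and the retinol dehydrogenase Rdh11 (-0.52 ± 0.14 SE, limma adjusted p = 0.0178). The count was 3 over all probe sets and without control 1, 3, 5, 7 or 8 or knockout 3, 6 or 7, and 2 without the 3 livers with adipocyte transcripts. The mean of this list was lowest in control 6 (9.23) and knockout 3 (8.86), the same livers as for the sterol enzymes. Of 7 genes of LXR and sterol export 3 fell, Scarb1 (-1.05 ± 0.08 SE), which takes up cholesterol from high-density lipoprotein, and the biliary sterol exporters Abcg5 (-0.53 ± 0.09 SE) and Abcg8 (-0.61 ± 0.10 SE). Their list mean spanned 1.20-fold among controls and 1.16-fold among knockouts, so it did not swing as the enzymes did.

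Of 9 genes of the non-sterol isoprenoid branch, 0 passed in limma, and 2 passed without knockout 3. At an unadjusted p under 0.05 there were 3, against 17.6% of all genes, and all 3 stood higher in knockouts. Of 12 genes for INSIG-linked protein degradation and for promoter partners of SREBP2, 1 fell. That was Nfyb, a subunit of the CCAAT-binding factor NF-Y, at 6.87 to 7.26 in controls and 6.36 to 6.90 in knockouts (-0.46 ± 0.08 SE, limma adjusted p = 0.000573). Of 10 genes of receptor adaptors, sterol transfer and ketone branches, Lbr was the 1 that fell; 0 passed without the 3 livers with adipocyte transcripts, and 2 without knockout 8.

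Outside the 30 genes, the 10 with the pattern most like the enzyme mean were taken by the smaller of r in controls and r in knockouts. They were Arhgap26 (0.89), Acly (0.88), Aldh4a1 (0.88), Rdh11 (0.87), Slc46a3 (0.86), Slc6a12 (0.86), Gamt (0.86), Lrtm1 (0.86), Nectin1 (0.84) and Qprt (0.84). Acly makes the cytosolic acetyl-CoA that sterol and fatty acid synthesis draw on. Srebf1, which encodes SREBP1, was close behind, with 0.82 in controls and 0.95 in knockouts. Without the lowest liver of each genotype Srebf1 was at 0.69 and 0.62, and Acly at 0.64 and 0.45. Without the lowest livers, Rdh11 was at 0.87 in controls and 0.71 in knockouts and Arhgap26 at 0.97 and 0.63, while Aldh4a1 was at 0.90 and 0.06. Of the 10, Rdh11, Slc46a3 (-1.16) and Gamt (-0.69) also fell in knockout livers in limma, with adjusted p-values of 0.0178, 5.26e-08 and 0.000106. Over all genes 3.20% fell.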

How the data were processed

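Each of the 16 livers gave 1 whole-transcript array, from 100 ng of total RNA per the labels' protocols. The authors deposited an intensity on a linear scale for each probe set. The submitters' processing notes name Affymetrix Expression Console as the tool; how it summarised, background-corrected and normalized the arrays is not stated in the labels. If it scaled the arrays to each other, a change common to most genes would be lost, and every change here is relative to the rest of the array. Array medians lay between 38.9 and 43.5. Values were taken to log2 with no pseudocount, filter or further scaling. Of 35556 probe sets 21456 named a single gene, and the brightest of each gene was kept, for 19237 genes. The 2 genotypes were compared gene by gene in limma 3.58.1 under R 4.3.3 (lmFit, eBayes, no covariate), with Benjamini-Hochberg adjustment over all of them. The number of arrays limits the precision.

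Relations with Sqle were tested over all 40320 pairings of 8 livers, and correlations with means of enzymes are descriptions. The fit and the correlation code were tested on simulated data. The text gives every member, with the lowest, median and highest liver for those called, for the 5 enzymes of largest spread, for Sqle, Srebf2, Insig1 and Insig2 and for compared uptake and storage genes; up to 3 called genes of other lists; and the 10 genes of most similar pattern. Acly, Srebf1, Lcn2, Mt2, Adipoq, Plin4, Car3, Alas2, Alb, Ttr, Hnf4a and Cps1 beyond these rules were named after their values were seen. The members and lists were chosen with earlier results of these data known. Alternatives were quantile normalization, a block for replicate number, subtraction of array medians, keeping genes above the 25th or the 50th percentile of intensity, averaging the probe sets of a gene, testing all probe sets, array weights, robust variances with an intensity trend, Spearman's rho and leaving out each liver. Chosen after seeing the data were fits without the 3 livers with adipocyte transcripts and correlations without control 6 and knockout 3.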

Additional observations from a re-analysis of the deposited data

Results flagged for a closer look

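Of the 60 groups formed by 30 genes and 2 genotypes, 11 had a liver far from the other 7 (gap to the nearest liver over the whole range). For a single group chance flags about 1 in 20. The groups share livers and the enzymes move together, so 11 of 60 cannot be read against that share. Of the 11, 8 were synthesis enzymes in the 2 livers with the lowest enzyme mean, a mean that these same genes enter. In knockout 3, Dhcr7 stood at 7.88 with the next knockout at 8.82, Sc5d at 10.35 with the next at 11.09, Mvk at 6.88 with the next at 7.58, Lss at 7.33 with the next at 8.14 and Nsdhl at 9.38 with the next at 9.93. In control 6, Pmvk stood at 7.01 with the next control at 7.64, Lss at 7.93 with the next at 8.51 and Nsdhl at 9.68 with the next at 10.15. The others were Lipa in knockout 8, at 9.96 with the next at 10.37, Mbtps1 in knockout 5, at 8.09 with the next at 8.25, and Npc1l1 in control 1, at 5.70 with the next at 5.34. Lss and Nsdhl were thus far from the rest in both livers.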

How the results depend on the processing

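Tm7sf2 fell under every alternative tried, and the median change of the 30 genes stayed below 0. The number that fell was 4, ran from 3 to 7 when 1 liver was left out (7 without control 6) and was 2 without the 3 livers with adipocyte transcripts. The number that rose was 0, and 1 (Insig2) with the replicate block, after quantile normalization, above the 25th or 50th percentile of intensity, with an intensity trend and with array weights, and 0 to 1 when 1 liver was left out. With the replicate block Msmo1 did not pass (adjusted p = 0.0568) and Hsd17b7 did (0.0314). Hsd17b7 also passed after quantile normalization (0.0389), above the 25th (0.0434) or 50th percentile (0.0356) and with the trend (0.0416), and Dhcr7 above the 50th (0.0499), so that 5, 5, 6 and 5 fell. The deviations of same-numbered livers correlated between -0.26 and 0.23 over all genes. A pairing that touches few genes would not show in these values, so whether the numbers pair the livers cannot be told. Lipa did not pass after subtraction of array medians (adjusted p = 0.0582) or over all probe sets (0.0596). The median r of enzyme pairs in controls was 0.75, and 0.54 to 0.80 when 1 control was left out, the lowest being without control 6 (0.54); in knockouts the range was 0.26 to 0.78. Relations with Sqle that passed numbered 1, against 8 after quantile normalization and 5 after subtraction of array medians. Changes near 0 turned sign: Ebp (0.0037 after quantile normalization, 0.0013 without the 3 adipocyte livers, -0.040 to 0.036 leaving out 1 liver), Ggps1 (-0.025 after quantile normalization, -0.0062 after median subtraction, -0.037 with array weights, -0.043 to 0.044), Mylip (-0.0078 and -0.019 with quantile normalization and array weights, -0.035 to 0.064), Npc1l1 (-0.015 after quantile normalization, -0.018 to 0.083), Npc1 (-0.0022 after quantile normalization, -0.0084 after median subtraction, -0.069 with array weights, -0.017 without the 3 adipocyte livers, -0.054 to 0.043) and Mvk (0.010 without the 3 adipocyte livers, -0.15 to 0.023). The causes were not tested. Array intensity limits Npc1l1 and Ggps1, the dimmest members.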
